A study of Sus scrofa with 9 samples.

Results

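Vitamin-C-treated Obese-MSCs were set against Lean-MSCs, the comparison of the 2 ends of the design, using 6 of the 9 hMeDIP-seq libraries of the series. MSCs (mesenchymal stem/stromal cells) were grown from the subcutaneous abdominal fat of female domestic pigs that were 3 months old when a Lean or an Obese diet began and that ate it for 16 weeks. The treated group held Obese-MSCs 4, 5 and 6, given vitamin-C at 50 µg/mL for 48 h after the third passage, and the Lean group held Lean-MSCs 7, 8 and 9, to which none was added. All 6 cultures shared the fat depot, the platelet lysate and a growth medium that, per the study, itself holds some vitamin-C. Diet and added vitamin-C both differ between these groups, so their contributions cannot be told apart here. The sources used here do not say which pig gave each treated culture. They also do not give the exact passage or confluence at which the Lean cultures were taken, which may differ from the treated ones.

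5-Hydroxymethylcytosine (5hmC) is made from 5-methylcytosine by the TET dioxygenases, iron enzymes whose activity vitamin-C promotes by keeping iron reduced. It is an intermediate of DNA demethylation and is also a lasting mark, common in the bodies of transcribed genes. In MSCs, cells that secrete trophic factors and can form fat, bone and cartilage, it has been studied as a route by which the metabolic state of a donor may leave a trace on DNA. In hMeDIP-seq, an antibody pulls down the DNA fragments bearing 5hmC before sequencing, so each value below is the 5hmC on the exons of a gene and not its expression.

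Lean-MSCs and treated Obese-MSCs sat in separate tables of normalized counts, each scaled on its own. Both tables held the untreated Obese-MSCs, and the ratio of their means per gene served to bring the treated values to the Lean scale. That ratio varied little, with a median of 1.11 and a range from 1.09 to 1.12. It could be formed for 15774 of 18752 gene symbols found in both tables (84.1%), namely those with an untreated mean over 3 in each. Of the other 2978 genes, 1 had a Lean mean over 10. Any batch that followed the table cannot be told apart from the groups.

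The libraries had like levels after scaling, with medians of 16.2 to 16.9 normalized counts, and their depth in reads is unknown. Treated Obese-MSCs 6 stood apart. Its correlation across genes with the other 5 libraries, on the log2 scale, was 0.839 to 0.883, against 0.891 to 0.910 for the 10 pairs without it, and 44.3% of its genes lay outside the range of the other 5 libraries, against 26.8% to 35.8% for the others. Counts of called genes, over all genes and in the gene lists, are therefore also given without it.

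Genes were called by the study's criteria, which ask for an unadjusted p-value up to 0.05 in a two-sided test with equal variances together with a treated mean 1.4 times the Lean mean or more, or 0.7 times or less. Treated Obese-MSCs had higher 5hmC in 317 genes (2.01% of those tested) and lower 5hmC in 488 genes (3.09%), 805 genes or 5.1% in all. Without the ratio, 1047 genes (6.64%) passed on the p-value. The groups were apart in each of the 805 genes. Over all genes, the groups did not overlap in 2004 (12.7%), with treated Obese-MSCs above Lean-MSCs in 867 (5.5%) and below in 1137 (7.21%). With limma on log2(value + 1) and Benjamini-Hochberg adjustment, 0 of 12619 genes passed 0.05, the smallest adjusted p was 0.123, and 949 genes (7.52%) had an unadjusted p of 0.05 or less. The words higher and lower below therefore describe the groups of 3 libraries and the unadjusted criteria.

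**Figure D1:**
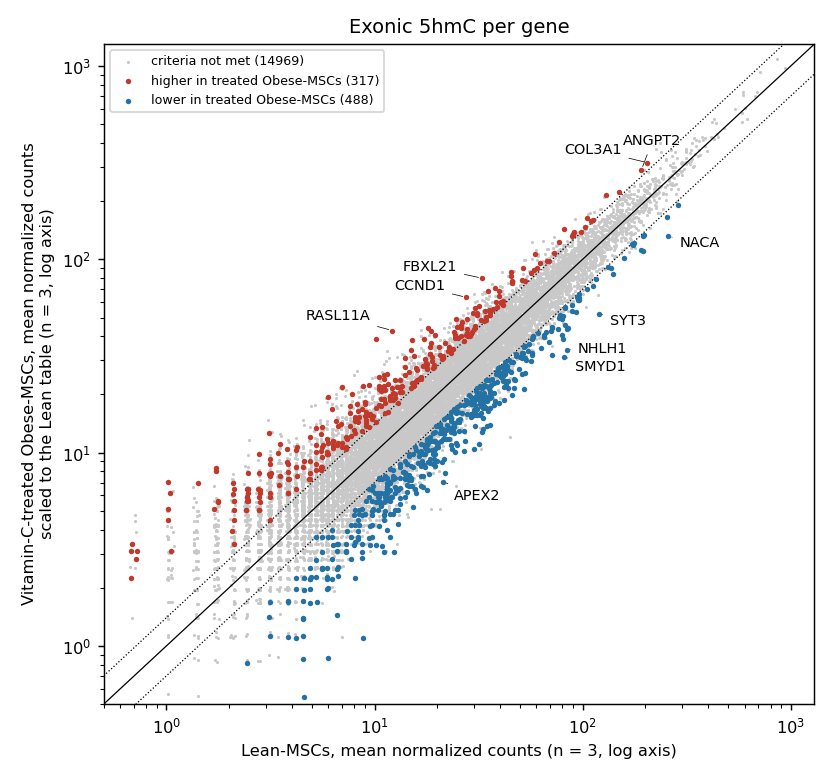
Mean normalized counts of 5hmC per gene in Lean-MSCs (x axis, log scale) and in vitamin-C-treated Obese-MSCs on the Lean scale (y axis, log scale), with 3 libraries per group. Points are genes with both means over 0.5, the solid line marks equal means and the dotted lines mark ratios of 1.4 and 0.7; the 317 red and 488 blue genes lie outside the dotted lines at all levels, from RASL11A above to APEX2, SMYD1 and NACA below.

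The size of the differences was moderate. The median log2 ratio of treated to Lean means was 0.81 over the genes called higher and -0.85 over those called lower, against 0.01 over all genes, whose quartiles were -0.27 and 0.30. A ratio of at least 2 was found in 96 of the higher genes, and a ratio of 0.5 or less in 155 of the lower ones. In 22 of the higher and 22 of the lower genes, every library of one group was below 3 normalized counts. Of the 805 genes, 380 were in the upper 50% by mean level. The criteria were still met by 228 of the 805 whichever library was left out. Without treated Obese-MSCs 6, 707 genes met them (328 higher and 379 lower), and without treated Obese-MSCs 4, 936 genes did (494 higher and 442 lower).

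RASL11A, a small GTPase of the Ras family (Sscrofa11.1 chr11:4746408-4748895), had the highest ratio among the called genes that were ranked. To be ranked, a gene had to be in the upper 50% by mean level and not be a gene model. Its groups also had to be apart, and its ratio had to hold without each library. RASL11A measured 46.1, 34.8 and 47.5 normalized counts in treated Obese-MSCs 4, 5 and 6 and 10.3, 12.9 and 13.3 in Lean-MSCs 7, 8 and 9. The lowest treated library was thus well above the highest Lean library. The log2 ratio was 1.81, stayed between 1.71 and 1.94 without each library in turn, and the criteria were met each time. The exact permutation p was 0.1, the smallest that 3 libraries against 3 can give. Groups that do not overlap always give this p, so for ranked genes it follows from their choice and is no further evidence. The adjusted p in limma was 0.123, the smallest of all genes tested.

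ERF, a transcriptional repressor of the ETS family (chr6:49678858-49686422), measured 43.3, 37.3 and 51.5 in the treated libraries and 15.9, 26.8 and 11.4 in the Lean libraries, a log2 ratio of 1.29. RGS3, a regulator of G-protein signalling, measured 30.7, 29.0 and 42.7 against 13.6, 16.9 and 14.4, a log2 ratio of 1.19. Like RASL11A, both met the criteria without any one library, and neither overlapped between groups.

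Cyclin D1 (CCND1, chr2:3621242-3633380), which drives cells through G1, measured 67.8, 41.4 and 81.5 normalized counts in the treated libraries and 29.3, 28.8 and 24.7 in the Lean libraries. The treated libraries differed among themselves about as widely as the groups did, and although the log2 ratio stayed at 0.99 or above without each library, the criteria were met in only 1 of the 6 such settings. FBXL21, an F-box protein of the circadian clock, was alike in this, at 99.5, 50.6 and 89.4 against 36.1, 31.8 and 30.8 (log2 ratio 1.28). BOK, a pro-apoptotic member of the BCL2 family, measured 28.0, 39.9 and 47.5 against 10.4, 26.8 and 14.4 (log2 ratio 1.16), so that its highest Lean library came close to its lowest treated one.

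The other genes among the 10 highest were TMUB2, TIMM22 (part of the import machinery of the mitochondrial inner membrane), the semaphorin SEMA4C, and VAC14 (a scaffold of the lipid kinase complex on endosomes), with log2 ratios between 1.18 and 1.33. Each met the criteria in 1 or 2 of the 6 settings that leave out a library. ST5, a signalling protein with a DENN domain, was not in the upper 50% by level. It had one of the 3 smallest limma p-values among higher genes that are not gene models. It measured 14.4, 26.6 and 24.9 against 7.88, 7.95 and 5.16 (log2 ratio 1.65, adjusted p 0.421 in limma).

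**Figure D2:**
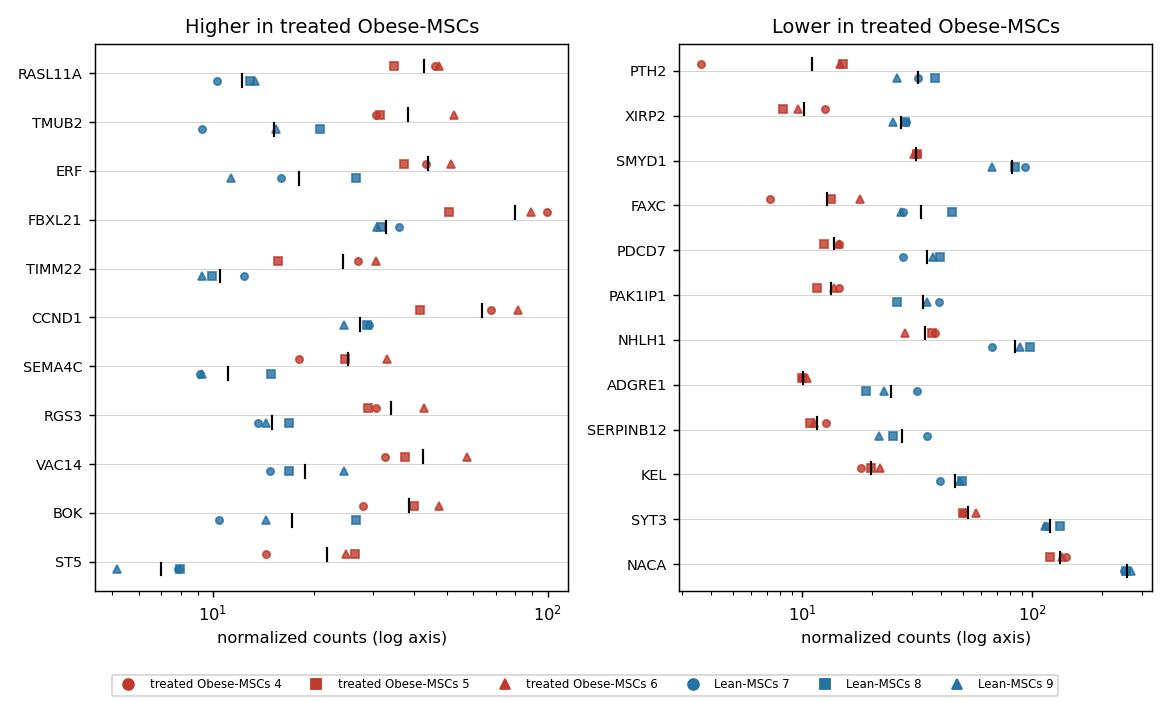
Normalized counts of 5hmC (x axis, log scale) in each library for the genes with the highest ratios (left) and the lowest ratios (right), with the genes of smallest limma p-value added. Red symbols are the 3 treated libraries, blue symbols the 3 Lean libraries and black ticks the group means. Red and blue do not overlap in any of the genes drawn, which the choice by ratio required. SMYD1 and NACA have tight groups whereas CCND1 and FBXL21 spread widely among the treated libraries.

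Among the lower genes that are not gene models, SMYD1, a lysine methyltransferase of heart and skeletal muscle (chr3:57866078-57918576), had the smallest limma p-value. It measured 31.6, 31.6 and 30.5 normalized counts in the treated libraries and 92.5, 84.4 and 66.8 in the Lean libraries. The treated libraries were almost equal, and all lay far below the lowest Lean library. The log2 ratio was -1.38, between -1.50 and -1.27 without each library, and the adjusted p in limma was 0.19. The exact permutation p was 0.1, which the choice of ranked genes fixed beforehand.

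NACA, a chaperone subunit at the ribosome whose long muscle isoform binds SMYD1 (chr5:22044569-22058096), measured 140.1, 119.7 and 134.3 against 251, 256 and 268. Synaptotagmin 3 (SYT3), a calcium sensor of vesicle fusion, measured 49.7, 49.9 and 57.1 against 114, 132 and 113. In both, the groups were tight and separate, with log2 ratios of -0.98 (NACA) and -1.197 (SYT3) and an adjusted p of 0.193 in limma for each. XIRP2, an actin-binding protein of striated muscle (chr15:73665876-73741046), was lower as well, at 12.6, 8.24 and 9.59 against 28.2, 27.8 and 24.7 (log2 ratio -1.41).

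NHLH1, a neuronal transcription factor with a helix-loop-helix domain, measured 37.9, 36.5 and 28.0 against 67.0, 97.3 and 88.3, a log2 ratio of -1.30. KEL, the Kell blood group glycoprotein, measured 18.1, 19.9 and 21.7 against 39.7, 49.6 and 48.3, a log2 ratio of -1.21. PDCD7, a protein of the minor spliceosome, and PAK1IP1, which serves ribosome assembly, both had a log2 ratio of -1.33. SMYD1, NACA, SYT3, XIRP2, NHLH1, KEL, PDCD7 and PAK1IP1 all met the criteria without any one library.

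The remaining genes among the 10 lowest ratios were less firm. PTH2, a peptide ligand of a parathyroid hormone receptor, had the lowest ratio among them at -1.52, but its treated libraries ran from 3.62 to 15.02 against 25.7 to 37.7 in Lean-MSCs, and it met the criteria in 5 of the 6 settings. ADGRE1, a macrophage surface receptor, measured 9.92, 9.94 and 10.4 against 31.4, 18.9 and 22.6, and with the serpin SERPINB12 it met them in 3 of 6. FAXC met them in 1 of 6. Of all 48 named genes that met the criteria, 18 met them in each of the 6 settings and 27 met them without treated Obese-MSCs 6.

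The enzymes that write and read the mark were next examined. The counts of called members in this and the following lists are to be read against 2.01% higher, 3.09% lower and 5.1% in either direction over all genes, and the list medians against 0.01. In a list of 33 genes of the TET, DNMT and base-excision cycle, 31 had values, 0 were called higher and 2 lower (6.45% called), with a median log2 ratio of 0.18. Of the 31, 20 had a log2 ratio over 0, and their summed level was 760 to 801 in Lean-MSCs and 874 to 912 in treated Obese-MSCs. The balance of calls turned without treated Obese-MSCs 6, where 2 were higher (PARP1 and CXXC4) and 1 lower (APEX2). TET1, which oxidizes 5-methylcytosine, measured 24.4, 30.0 and 16.7 normalized counts of exonic 5hmC in the treated libraries and 32.9, 34.7 and 39.0 in the Lean libraries. The groups did not overlap, but the log2 ratio of -0.58 owed part of its size to treated Obese-MSCs 6, and without it the ratio was -0.39 and the criteria were not met. TET2 (61.5, 54.9 and 40.9 against 56.3, 39.7 and 48.3) and TET3 (97.6, 71.4 and 71.5 against 60.0, 52.6 and 84.1) overlapped between groups.

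APEX2, an endonuclease that cuts DNA at abasic sites (chrX:47862682-47870579), had the clearest separation of the list. It measured 9.04, 5.79 and 6.41 against 21.5, 22.8 and 19.5, a log2 ratio of -1.59 that stayed at -1.46 or below without each library. The adjusted p in limma was 0.404. The maintenance and de novo methyltransferases DNMT1, DNMT3A and DNMT3B had log2 ratios of -0.11, 0.39 and -0.47 with overlapping groups. UHRF2, a reader of hydroxymethylated DNA, did not overlap (108, 72.4 and 87.8 against 44.4, 69.5 and 59.6, log2 ratio 0.63) but did not meet the p-value criterion.

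Among 36 other dioxygenases that use vitamin-C, which include prolyl and lysyl hydroxylases and JmjC histone demethylases, 0 were called higher and 1 lower (2.78% called), and the median log2 ratio was -0.00. The called gene was KDM2B, a demethylase of histone H3 that binds unmethylated CpG islands, at 19.9, 17.4 and 20.1 against 30.5, 24.8 and 32.8 (log2 ratio -0.62). The oxygen sensor EGLN1 was called lower beside it without treated Obese-MSCs 6. Of 15 genes of vitamin-C transport and recycling, 1 was higher and 0 lower. It was SLC23A1, a sodium-dependent vitamin-C transporter, at 17.1, 16.5 and 23.4 against 9.13, 9.93 and 13.3 (log2 ratio 0.82). Without treated Obese-MSCs 6, GULO was called lower beside it, and the median of the transport list, 0.25, became -0.03. The broadly expressed transporter SLC23A2 overlapped between groups (106, 97.3 and 81.1 against 66.9, 79.4 and 92.4).

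In 30 antioxidant and glutathione enzymes, 0 were called higher and 2 lower (6.67% called). Extracellular superoxide dismutase (SOD3) measured 8.14, 11.7 and 9.64 against 15.8, 11.9 and 16.4, and glutathione synthetase (GSS) measured 7.21, 9.14 and 8.002 against 14.6, 10.9 and 11.3. Their groups were separated by narrow gaps, with log2 ratios of -0.58 and -0.60, and each met the criteria in 1 of the 6 settings. Both calls were lost without treated Obese-MSCs 6.

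**Figure D3:**
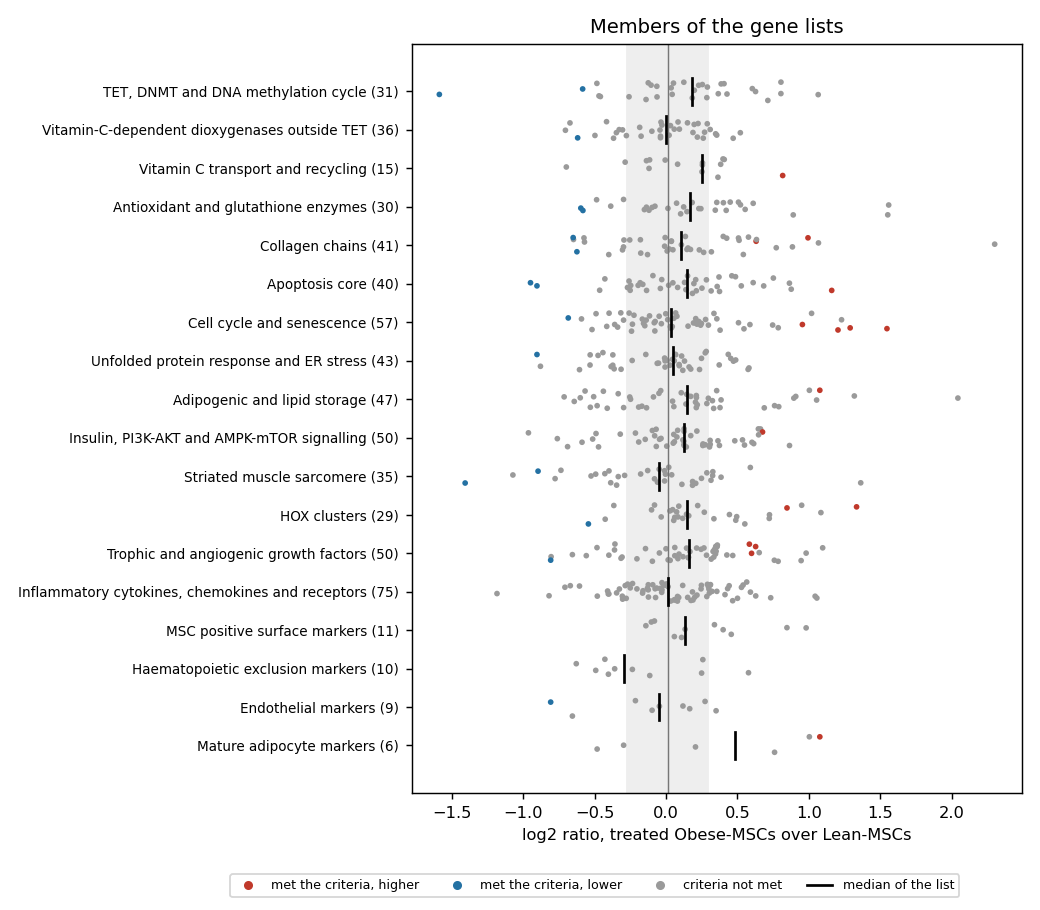
Log2 ratio of mean 5hmC in treated Obese-MSCs over Lean-MSCs (x axis) for each member of 18 gene lists, with the number of members with values in brackets. Red and blue points met the criteria, black ticks are list medians, and the grey band and line give the interquartile range and the median (0.01) of all 15774 genes; apart from the haematopoietic markers and the 6 mature adipocyte markers, the list medians lie within the band, and called members are few in every list.

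Collagens, whose folding needs vitamin-C-dependent hydroxylation, had 2 of 41 chains higher and 2 lower (9.76% called) and a median log2 ratio of 0.11. When treated Obese-MSCs 6 was left out, 3 chains were higher (COL3A1, COL5A2 and COL21A1) and 0 lower. COL3A1, a fibrillar collagen of soft tissue (chr15:93556914-93595678), was at 321, 317 and 311 normalized counts in the treated libraries and 182, 224 and 206 in the Lean libraries. The treated libraries were nearly equal, the groups were far apart, and the log2 ratio of 0.63 held between 0.55 and 0.70 without each library. COL8A2 was higher as well (18.95, 20.7 and 26.6 against 9.14, 15.9 and 8.24), while COL6A5 (24.4, 22.5 and 11.9 against 31.6, 29.8 and 30.8) and COL28A1 (16.2, 16.6 and 15.2 against 20.5, 23.8 and 29.7) were lower. These 3 calls were lost without treated Obese-MSCs 6.

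The major fibrillar chains COL1A1 and COL1A2 overlapped between groups, with log2 ratios of 0.17 and 0.14. The basement membrane chains COL4A1 (log2 ratio 0.40) and COL4A2 (0.51) and the fibrillar chain COL5A2 (0.63) did not overlap and were higher in each treated library, and COL4A5 (-0.65) and COL5A3 (-0.57) were lower in each. None of these 5 met both criteria. The summed level of all 41 chains was 3383 to 3511 in Lean-MSCs and 4051 to 4225 in treated Obese-MSCs, but single high values weighed on it, as COL7A1 was at 744 in treated Obese-MSCs 6 against 210 to 253 in the other 5 libraries and COL12A1 was at 977 in treated Obese-MSCs 4 against 518 to 673.

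Trophic and angiogenic factors, the secreted proteins for which MSCs are used, had 3 of 50 members higher and 1 lower (8.0% called), and without treated Obese-MSCs 6 1 was higher (ANGPT2) and 1 lower (STC1). Angiopoietin 2 (ANGPT2, chr15:37544177-37600925) measured 287, 258 and 326 normalized counts in the treated libraries and 183, 203 and 189 in the Lean libraries, a log2 ratio of 0.60 that met the criteria without any one library. Its receptor TEK, also known as TIE2, was lower, at 32.4, 22.4 and 15.9 against 42.9, 37.7 and 43.1 (log2 ratio -0.81). The TEK ratio became -0.59 without treated Obese-MSCs 6 and then missed the criteria.

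Hepatocyte growth factor (HGF) measured 61.4, 49.8 and 53.8 against 32.9, 27.8 and 46.2, and leukemia inhibitory factor (LIF) 197, 259 and 215 against 112, 169 and 166. Both were separate between groups but rested on all 6 libraries, since HGF met the criteria in 1 of the 6 settings and LIF in 0. Vascular endothelial growth factor A (VEGFA) varied widely, at 40.7, 33.1 and 104 against 22.9, 27.8 and 52.3, and overlapped.

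**Figure D4:**
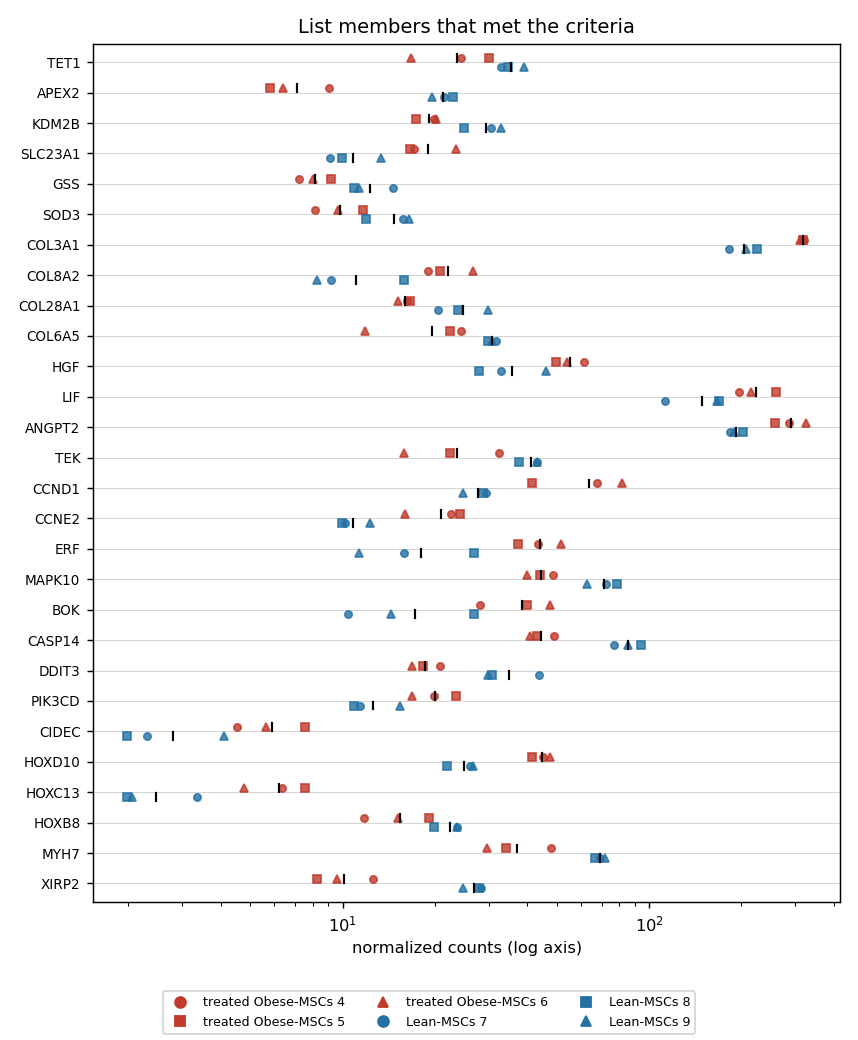
Normalized counts of 5hmC (x axis, log scale) in each library for 28 members of the gene lists that met the criteria. Red symbols are the 3 treated libraries, blue symbols the 3 Lean libraries and black ticks the group means; COL3A1, ANGPT2, CASP14 and HOXD10 show wide gaps between groups, while the groups of SOD3, HOXB8 and GSS nearly touch.

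Cell cycle and senescence genes had 4 of 57 members higher and 1 lower (8.77% called, against 5.1% of all genes), with a median log2 ratio of 0.04. The counts were the same without treated Obese-MSCs 6, but the members were not, as CCND1 lost its call and another member gained one. Besides CCND1 and ERF, cyclin E2 (CCNE2), which acts at the entry to S phase, was higher at 22.7, 24.2 and 16.0 against 10.2, 9.93 and 12.3 (log2 ratio 0.95). The kinase JNK3 (MAPK10) was lower, at 48.7, 44.0 and 40.1 against 72.3, 78.4 and 62.7, and its log2 ratio of -0.68 met the criteria without any one library. The cell cycle inhibitor CDKN1A (log2 ratio -0.17) overlapped between groups.

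In the apoptosis list, 1 of 40 members was higher (BOK) and 2 were lower (7.5% called), and without treated Obese-MSCs 6 CASP14 alone was called. CASP14, a caspase of keratinocyte differentiation (chr2:62522294-62531594), measured 48.8, 43.2 and 40.9 against 77.0, 94.3 and 85.2. The highest treated library was far below the lowest Lean one, and the log2 ratio of -0.95 stayed between -1.02 and -0.87. DDIT3, which encodes the stress transcription factor CHOP, measured 20.7, 18.3 and 16.8 against 43.8, 30.8 and 29.8 (log2 ratio -0.90) and met the criteria in 3 of 6 settings, but not without treated Obese-MSCs 6. DDIT3 was also the 1 called member of 43 genes of the unfolded protein response, where the sensors ATF6, ERN1 and EIF2AK3 had log2 ratios of -0.06, -0.01 and 0.03.

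Metabolic lists held few calls. Among 47 adipogenic and lipid storage genes, 1 was higher (2.13% called), the lipid droplet protein CIDEC, at 4.52, 7.53 and 5.61 against 2.299, 1.98 and 4.09, values close to the lower end of the scale. Its call was lost without treated Obese-MSCs 6, and SREBF1 was called higher in its place. The adipogenic master regulator PPARG overlapped (38.9, 29.9 and 43.5 against 75.3, 44.7 and 42.2). SREBF1 and FASN, of fatty acid synthesis, were higher in each treated library with log2 ratios of 1.32 and 1.05 but did not meet the p-value criterion with all libraries. Of 50 genes of insulin, PI3K-AKT and AMPK-mTOR signalling, 1 was higher (2.0% called), the kinase subunit PIK3CD (19.9, 23.4 and 16.8 against 11.4, 10.9 and 15.4). Leaving out treated Obese-MSCs 6 gave 3 higher genes, PIK3CD, PIK3CA and TBC1D4.

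In 35 striated muscle sarcomere genes, 0 were higher and 2 lower (5.71% called), XIRP2 and the slow myosin heavy chain MYH7. MYH7 measured 47.8, 34.0 and 29.6 against 69.0, 66.5 and 71.9 (log2 ratio -0.90) and met the criteria without any one library. SMYD1 was not a member of this list. Without treated Obese-MSCs 6, 2 sarcomere genes were called higher and 3 lower, and the list had a median log2 ratio of -0.05 with all libraries.

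The HOX genes, transcription factors of positional identity, had 2 of 29 members higher and 1 lower (10.3% called, against 5.1% of all genes). With treated Obese-MSCs 6 left out, 4 were higher (HOXA6, HOXC4, HOXC13 and HOXD10) and 0 lower. HOXD10 measured 45.1, 41.5 and 47.4 against 26.0, 21.8 and 26.7 (chr15:81911372-81921164), a log2 ratio of 0.85 that met the criteria without any one library. HOXC13 was higher from very low Lean values (6.34, 7.53 and 4.77 against 3.35, 1.98 and 2.06), and HOXB8 was lower (11.7, 19.1 and 15.2 against 23.7, 19.9 and 23.6), a call made in 1 of the 6 settings. Of the 29, 23 had a log2 ratio over 0, where 51.5% of all genes did, and the median was 0.14. Other lists leaned upward too, as 35 of 50 trophic factors and 20 of 31 TET, DNMT and base-excision genes were over 0. Sarcomere genes (14 of 35) and haematopoietic markers (3 of 10) were among those leaning the other way. The summed level over the HOX list was 605 to 667 in Lean-MSCs and 719 to 839 in treated Obese-MSCs. Sums of trophic factors were also apart, at 2452 to 2701 and 2762 to 3419, whereas those of apoptosis genes overlapped. In every list the sum rests mostly on the members of highest level, so it does not show a shift of the whole list. How often sums of other lists would be apart was not tested.

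Of 75 inflammatory cytokines, chemokines and their receptors, 0 met the criteria in either direction, against 5.1% of all genes, and the median log2 ratio was 0.01. IL18 was called lower without treated Obese-MSCs 6. Under limma 0 passed the adjusted threshold and 4 of the 60 tested had an unadjusted p of 0.05 or less. IL6 (147, 215 and 77.4 against 98.6, 116 and 128) and CCL2 (82.3, 52.4 and 48.2 against 84.6, 83.4 and 52.5) overlapped. The groups did not overlap in 4 members with treated Obese-MSCs above Lean-MSCs (5.5% of all genes) and in 2 with them below (7.21%). Those above were TNF (14.4, 14.1 and 14.4 against 9.10, 7.94 and 13.3), IL17B, CX3CL1 and BCL3. BCL3 is a regulator of NF-κB signalling and not itself a cytokine or receptor, and the study names it as high in untreated Obese-MSCs. IL18 was among those below (1.80, 2.47 and 4.06 against 5.62, 4.96 and 4.12).

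Marker genes of the cell types that adipose cultures can hold were listed too, although 5hmC on a gene cannot identify a cell. Of 11 MSC surface markers with values, 0 were called, and CD44 (199, 173 and 197 against 183, 211 and 152), THY1 and NT5E overlapped. Their summed level was 612 to 663 in Lean-MSCs and 645 to 901 in treated Obese-MSCs. In 1 of the 11, treated Obese-MSCs lay wholly above Lean-MSCs (5.5% of all genes), and in 0 wholly below (7.21%). Haematopoietic markers had 0 of 10 called and a median log2 ratio of -0.30, with sums of 340 to 382 and 278 to 360. Treated Obese-MSCs lay wholly below Lean-MSCs in 3 of these 10 and wholly above in 0. Endothelial markers had 1 of 9 called, TEK, with sums of 281 to 344 and 250 to 297. Mature adipocyte markers had 1 of 6 called, CIDEC, with sums of 123 to 161 and 133 to 143. Without treated Obese-MSCs 6, 0 markers of any of these classes were called. The ranges of these sums overlapped between groups in each class, and the part of cell composition in the differences was not tested.

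Of the genes that the study names, 6 with values here were listed. They were picked on Lean-MSCs and untreated Obese-MSCs of this series, so their direction is no independent evidence. Per the study, CASP14 and DDIT3 protein was also lower in untreated Obese-MSCs than in Lean-MSCs, while MAPK10 and CDKN2C protein was unaltered. CASP14, DDIT3, MAPK10 and MYH7 were lower in treated Obese-MSCs than in Lean-MSCs, as given above. Untreated Obese-MSCs measured 49.1 ± 12.1, 20.2 ± 1.44, 46.0 ± 3.03 and 44.2 ± 3.71 in these 4 genes (SD, n = 3), beside treated means of 44.3 ± 4.03, 18.6 ± 1.99, 44.3 ± 4.33 and 37.1 ± 9.51. The treated means of all 4 were thus nearer to the untreated means than to the Lean means of 85.5 ± 8.66, 34.8 ± 7.83, 71.2 ± 7.95 and 69.1 ± 2.68.

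The antioxidant enzyme GPX3 measured 31.7, 18.97 and 50.2 in the treated libraries and 8.07, 9.92 and 16.4 in the Lean libraries, and the cell cycle inhibitor CDKN2C 17.2, 21.5 and 34.8 against 10.2, 12.9 and 8.24. Neither overlapped, with log2 ratios of 1.55 and 1.23, but neither met the p-value criterion with all libraries. Without treated Obese-MSCs 6, CDKN2C met it at a log2 ratio of 0.89. Their untreated means were 32.5 ± 8.57 and 27.2 ± 9.66 (SD, n = 3).

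A further 16 genes came from earlier results of these data. They had been chosen because untreated Obese-MSCs differed from both Lean-MSCs and treated Obese-MSCs, and this choice favours similar values in the 2 latter groups. They do not stand for the whole set of genes that the study reports as reversed by vitamin-C. Of 13 with a scaled value, 0 met the criteria. In the 6 genes chosen for low untreated values, TSHR, PAX7, RAMP2, PRKAG3, EIF2B5 and WEE2, log2 ratios of treated to Lean lay between -0.51 and 0.19. PAX7, a transcription factor of muscle stem cells, measured 12.6, 11.6 and 8.74 against 9.20, 16.9 and 12.3, with an exact permutation p of 0.5. TSHR, the thyrotropin receptor, was the exception, as all 3 treated libraries (15.3, 17.4 and 18.5) were below the Lean libraries (19.4, 27.8 and 22.6), between these and the untreated mean of 11.6 ± 1.24 (SD, n = 3).

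In the 7 genes chosen for high untreated values, XBP1, a transcription factor of the unfolded protein response, measured 9.92, 9.10 and 10.4 against 10.1, 7.94 and 9.24, and FBXO32, a ubiquitin ligase of muscle atrophy, 16.2, 26.7 and 14.3 against 18.1, 14.9 and 19.5. Both overlapped Lean-MSCs, as did CD27, TUBA1B, PPP2CA and IK, whose log2 ratios lay between -0.01 and 0.30. ANXA1 was below 3 normalized counts in every treated library (2.70, 2.48 and 2.39), under its Lean values of 3.41, 2.98 and 4.10. With 3 libraries per group, an exact permutation p from 0.3 to 1 in the overlapping genes does not show that treated Obese-MSCs and Lean-MSCs were alike.

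**Figure D5:**
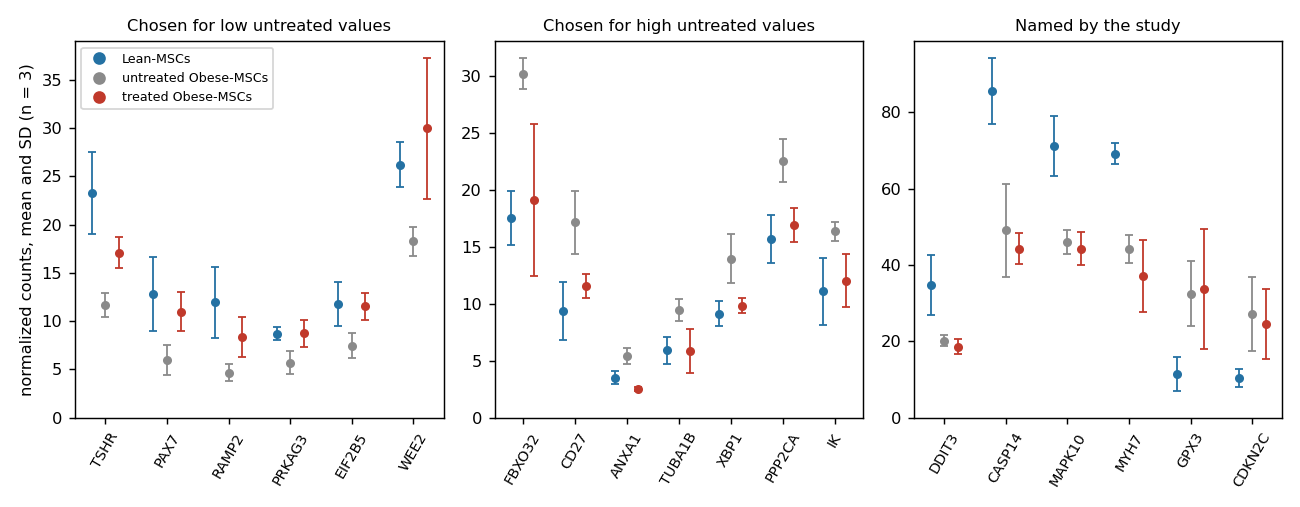
Normalized counts of 5hmC (y axis, mean and SD of 3 libraries) in Lean-MSCs (blue), untreated Obese-MSCs (grey, shown for reference only) and treated Obese-MSCs (red). In the 2 left panels, whose genes were chosen by their untreated values, red bars overlap blue bars except for TSHR and ANXA1; in the right panel, red lies below blue for DDIT3, CASP14, MAPK10 and MYH7 and above it for GPX3 and CDKN2C.

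The leading genes can be set beside the untreated means in the same way, as a description. For RASL11A, ERF and FBXL21 these were 34.9 ± 5.75, 43.1 ± 9.27 and 95.1 ± 28.5 (SD, n = 3), against treated means of 42.8 ± 6.94, 44.1 ± 7.13 and 79.9 ± 25.8. For SMYD1, SYT3 and APEX2 they were 40.1 ± 14.9, 50.1 ± 6.94 and 6.07 ± 3.21, against treated means of 31.2 ± 0.624, 52.2 ± 4.25 and 7.08 ± 1.73. Over the 23 genes named for their ratio or limma p-value, the treated and untreated means differed by less than the larger of their SDs in 16 and by more in 7, which were RASL11A, RGS3, VAC14, ADGRE1, KEL, NHLH1 and PDCD7. The same count was not made over all genes. With 3 libraries per group, a difference below the SD does not show that treated and untreated means were alike. In VAC14 the untreated mean of 28.2 ± 10.6 was nearer to the Lean mean of 18.8 ± 5.15 than to the treated mean of 42.5 ± 13.2. Of the list members, KDM2B had an untreated mean of 27.5 ± 5.03, a Lean mean of 29.4 ± 4.13 and a treated mean of 19.1 ± 1.49, and SLC23A1 had 13.3 ± 3.75 untreated, 10.8 ± 2.23 Lean and 19.01 ± 3.78 treated.

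Called genes lay on every chromosome. Chromosome 12 had the highest share of higher genes, 30 of 907 (3.31%), and chromosome X had the lowest, 4 of 517 (0.774%), with 19 lower genes (3.68%), among them APEX2. Chromosome 15, with XIRP2 among its lower genes, had the highest share of lower genes, 24 of 600 (4.0%). The median gene span was 17.5 kb for higher genes, 22.9 kb for lower genes and 27.3 kb for all genes.

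Some called genes were neighbours. Within 20 kb of each other on a chromosome, 27 pairs were called in the same direction and 11 in opposite directions. How many pairs of all genes lie so close was not counted, so these numbers do not show that called genes cluster. In 6 of the 27 the gene spans overlapped, such as FANCA, a gene of DNA crosslink repair, with ZNF276 (log2 ratios of 1.16 and 1.31) and the lysosomal enzyme IDUA with SLC26A1 (0.95 and 0.75), and exons shared by such genes cannot be separated in these values. Pairs without overlap included FCRL4 and FCRL5, Fc receptor-like genes of B cells (-0.72 and -0.86), and STUB1 and WDR90 (1.18 and 1.49). These pairs were named after their values were seen.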

How the data were processed

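The 3 Lean and 3 vitamin-C-treated Obese hMeDIP-seq libraries came from cultured swine MSCs. The authors aligned paired reads of 51 bases to susScr 11.1 with Bowtie2 2.3.3.1, removed duplicates with Picard 1.67, counted reads over exons with HTSeq 0.9.1 and normalized with edgeR 3.28.1 (versions per the submitters' processing notes). The deposited values are a normalized signal per gene, fractional and never negative, in 2 tables normalized separately. They summed to 494566 to 507497 per Lean library and 547204 to 593795 per treated library. Reads could not be recovered, so no counting interval was computed, and errors come from the 3 libraries of a group alone. P-values measure the spread between these libraries.

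Of the symbols, 18752 were in both tables. In the treated table, dates stood in place of 25 names, which were left out, and 645 residues around 0 were set to 0. Each treated value was divided by the gene's ratio of untreated means in the 2 tables, for genes with both means over 3. Genes were called by the study's criteria on the linear values, and with limma 3.58.1 in R 4.3.3 on log2(value + 1) with a trend, keeping the top 80% of genes by mean, at a Benjamini-Hochberg adjusted p of 0.05. A pseudocount of 1 understates limma's folds for low genes, and printed log2 ratios use none. Named genes are first the 10 highest and 10 lowest ratios among called genes in the upper 50% by mean. These kept groups apart, direction and size without each library, and their symbols are not gene models. Added to them were the 3 smallest limma p-values each way, again leaving out gene models, and called members of the gene lists. Some genes that the study or earlier results name were added too, but not all that the study names. No gene below 3 in every library of a group was given a fold. The members and lists were chosen with earlier results of these data known. List counts without treated Obese-MSCs 6 were added after seeing the data.

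In simulated data, 200 genes of the upper 50% by mean level were changed 3-fold. The study's criteria recovered 88.0% of these, with 512 others called among 15774 genes. The limma fit recovered 86.0% of them, with 10 others among 12619 genes. Recovery at lower levels was not simulated, and 380 of the 805 called genes of the real data were in the upper 50%. The called genes of the real data mostly differed by less, with median log2 ratios of 0.81 (higher) and -0.85 (lower). Changes of that size were not simulated, so these percentages do not show how many of them limma would find. Some list members, 1 of them called, are not reported here by name. Positions are those of Sscrofa11.1, by symbol. Python 3.11.15 with pandas 2.3.3, numpy 2.4.6, scipy 1.17.1 and matplotlib 3.10.9 was used.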

Additional observations from a re-analysis of the deposited data

How the results depend on the processing

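Of 805 called genes (317 higher, 488 lower), 510 (202 and 308) were called with untreated means over 10, 188 (55 and 133) at a p-value threshold of 0.01, 251 (96 and 155) with ratios of 2 and 0.5, and 380 (143 and 237) in the upper 50% by mean. Fewer genes were tested or stricter limits applied in each of these. Leaving out 1 library gave 658 to 936 genes, 220 to 494 higher and 379 to 491 lower, with the largest count of higher genes without treated Obese-MSCs 4. With limma, the count of 0 became 0 to 1 when a library was left out. The 1 gene, LOC110255297, was called without treated Obese-MSCs 4 (log2 fold change -2.56, adjusted p 0.00548), and the cause was not tested. The smallest adjusted p ranged from 0.00548 to 0.698 over 21 alternatives. One factor for all genes (801), no minimum (963), size factors (785), quantile normalization (787), a log scale (803), unequal variances (565) and scaling without an untreated library (787 to 809) stayed within 1.5 times. Of 870 values for 63 named genes under the alternatives, 0 reversed and 1 moved (CIDEC without Lean-MSCs 9). The sign of 2 list medians near 0, those of the unfolded protein response and of the other dioxygenases, turned with the scaling. No paired analysis was possible because, per the study, the Lean and Obese groups were different pigs, randomized to their diets.

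The values are relative within a table, so a change of 5hmC shared by all genes would not be visible. Low values come in steps near 1 normalized count, which limits what can be said of genes such as CIDEC and HOXC13. All 18752 shared genes could not be compared, as 641 of those without a scaling factor had a Lean mean over 3.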

Other observations

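Genes without a scaling factor can be given in their own tables, with no comparison across them. HAX1, an anti-apoptotic mitochondrial protein, measured 5.58, 3.97 and 3.095 normalized counts in Lean-MSCs, where the untreated mean was 1.52, and 3.02, 3.70 and 4.50 in treated Obese-MSCs, where the untreated mean was 1.70. The homeobox gene ESX1 measured 3.50, 5.96 and 7.17 beside an untreated mean of 2.47 in the first table, and 4.03, 5.58 and 4.46 beside 2.76 in the second. TERT, the catalytic subunit of telomerase, was at 1.095 or less in each Lean library beside an untreated mean of 2.79 in the first table, and at 2.01, 3.74 and 1.75 in the treated libraries beside 3.12 in the second.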
